A study of Arabidopsis thaliana with 30 samples.

Results

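The comparison described here sets leaves labelled rbohD against wild-type leaves (WT, accession Col-0) of Arabidopsis thaliana after 60 min of waterlogging, and it asks how the leaf transcriptome differs between the genotypes while the roots stand in water. It was formed from the sample titles and uses 6 of the 30 RNA-seq libraries of the study, 3 of each genotype. The leaves were systemic, that is, not the waterlogged tissue itself, and per the series' design text the 3 repeats of a genotype and time together came from 15 plants. The rbohD mutation affects RBOHD, which encodes respiratory burst oxidase homologue D. The labels give neither the allele nor plant age or growth conditions, and nothing states which plants went into which library. The p-values below therefore measure only the spread between libraries, pooled over the groups of all 30 libraries. A pair of other genotype comparisons, untreated leaves at 60 min and leaves at 0 min, with 3 libraries of each genotype apiece and none in common with the waterlogged comparison, serve as context.

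RBOHD is a plasma membrane NADPH oxidase that makes superoxide outside the cell, which turns into hydrogen peroxide. In Arabidopsis a wave of such reactive oxygen species (ROS) that spreads from cell to cell, together with calcium and electric signals, carries stress signals from a treated tissue to distant leaves, and RBOHD is needed for its spread. The hormones jasmonate and salicylic acid, touch-inducible and ROS-inducible transcription factors, iron handling and ROS-scavenging enzymes are all linked to this signalling, and lists of their genes are used below.

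RBOHD itself (chromosome 5, 19397041 to 19402061) was read at 13.3, 13.5 and 13.8 FPKM in WT and 13, 11.9 and 15.7 FPKM in the libraries labelled rbohD, in the order of replicates 1 to 3 here and below. FPKM are fragments scaled to gene length and to library size. The groups overlapped (log2 difference -0.01, SE 0.06, adjusted p 0.951), so the level of RBOHD does not bear out the genotype label, gene-level values cannot show a disrupted transcript, and the second genotype is called "labelled rbohD" throughout. At 0 min RBOHD and a related oxidase gene, RBOHF, both passed the threshold used below and were higher in the libraries labelled rbohD (median 0.47). In untreated leaves at 60 min 1 of them was lower. The 6 libraries held 11.4 M to 13.1 M fragments as implied by the deposited confidence bounds. The nuclear 18S rRNA gene AT3G41768 stood at 4639 to 5290 FPKM in the libraries labelled rbohD and at 5754 FPKM in WT replicate 3, against 2055 and 1959 FPKM in WT replicates 1 and 2. The total count of each gene list below is therefore also given against WT replicate 3 alone, with the spread pooled over the study's groups and that lone library assumed to vary like the others. On the first principal component of all 30 libraries, which held 26.0% of the variance, WT replicate 3 lay at 35.3, beside the other WT waterlogged libraries at 35.4 and 35, and the libraries labelled rbohD lay between 45.7 and 46.8.

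Of the 17491 genes that averaged 1 FPKM or more over the 30 libraries, 6053 (34.6%) differed between the genotypes in waterlogged leaves at an adjusted p under 0.05 (limma on log2(FPKM + 1), Benjamini-Hochberg). In the libraries labelled rbohD 2557 (14.6%) were higher and 3496 (20%) were lower. These shares are the background for the list counts of this comparison below. They do not apply to the counts against WT replicate 3 alone, where fewer genes were called, or to those in other conditions. Most differences were small: 80.5% of the called genes differed by less than 1.5-fold, and the median of all tested genes was -0.04. At least 2-fold differences were more often upward, with 224 genes higher and 79 lower. In 7136 genes (40.8%) the groups did not overlap. Against WT replicate 3 alone 3599 genes were called, and 3428 of them were among the 6053, all in the same direction; of the 303 genes that differed at least 2-fold, 279 were called there. A fit of these 6 libraries alone, with 4 residual degrees of freedom in place of 20, called 3266 genes. Log2 differences below refer to log2(FPKM + 1), so those of weakly expressed genes come out too small, and they are positive where the level was higher in the libraries labelled rbohD.

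**Figure D1:**
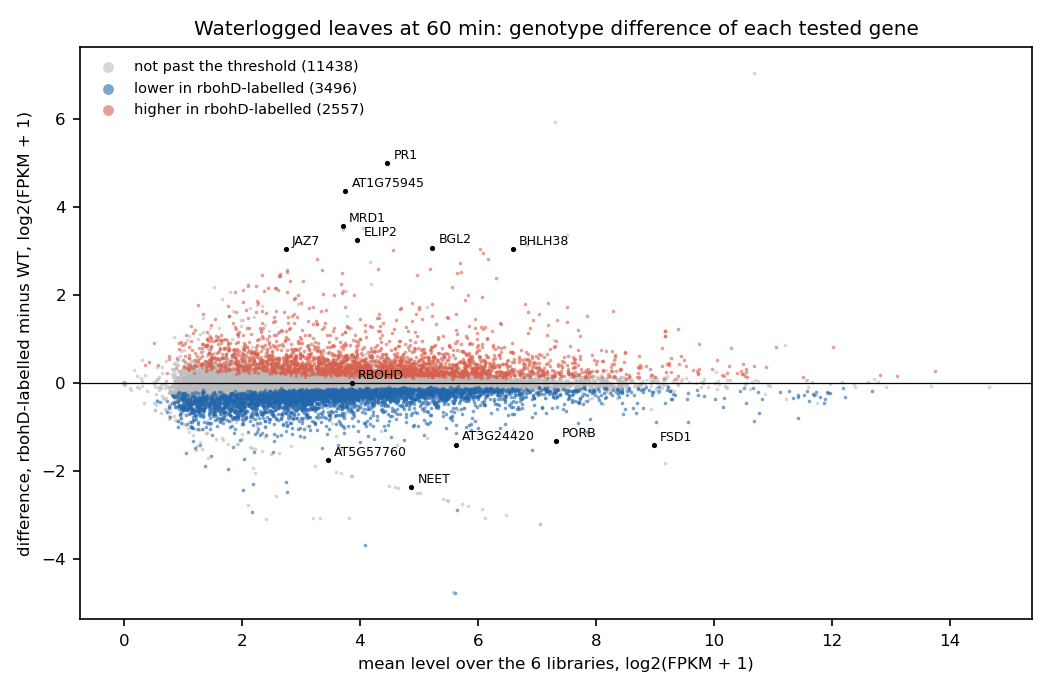
Genotype difference of each of the 17491 tested genes in waterlogged leaves at 60 min (vertical axis, log2(FPKM + 1), libraries labelled rbohD minus WT) against the mean level over the 6 libraries (horizontal axis, log2(FPKM + 1)); orange points are the 2557 genes called higher, blue points the 3496 called lower, and black points mark named genes. Points far above 0 outnumber points far below it among called genes, and RBOHD lies on the zero line.

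Of the 15 genes with the largest upward difference, 5 belong to the iron deficiency list, 2 to salicylic acid output and 1 to the jasmonate list, and the other 7 to none of these. The naming rule required groups that do not overlap, here and for the 15 largest downward differences. PR1 (chromosome 2, 6241640 to 6242541), a secreted defence protein and the common marker of salicylic acid signalling, stood at 0.519, 0.363 and 0.149 FPKM in WT and 39.2, 42.4 and 43.4 FPKM in the libraries labelled rbohD (log2 difference 5.0, SE 0.23, adjusted p 5.88e-14). BGL2 (chromosome 3, 21188397 to 21189967), a defence glucanase, stood at 6.50, 7.65 and 6.81 FPKM in WT and 68.5, 69.5 and 59.8 FPKM in the libraries labelled rbohD (log2 difference 3.07, SE 0.09, adjusted p 2.95e-17). All 3 libraries labelled rbohD lay far above all 3 of WT for both genes. AIG1, a gene named for its induction by a bacterial avirulence factor, was read at 0.874, 1.17 and 0.833 FPKM in WT and 11.7, 11.0 and 9.10 FPKM in the libraries labelled rbohD (log2 difference 2.56). JAZ7 (chromosome 2, 14573030 to 14573952), a repressor protein of the jasmonate pathway, stood at 0.296, 0.911 and 0.170 FPKM in WT and 8.42, 10.6 and 13.7 FPKM in the libraries labelled rbohD (log2 difference 3.04, SE 0.19, adjusted p 1.01e-11). The lowest library labelled rbohD was well above the highest of WT. ELIP2, which encodes a chlorophyll-binding protein made under strong light, was read at 2.31, 1.29 and 2.43 FPKM in WT and 27.1, 29.4 and 24.7 FPKM in the libraries labelled rbohD (log2 difference 3.24).

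Further genes among the 15 with the largest upward difference have little or no annotated function. AT1G75945, listed by RefSeq as uncharacterized, was listed at 0, 0.923 and 0 FPKM in WT and read at 25.6, 27.3 and 21.2 FPKM in the libraries labelled rbohD. MRD1 (mto 1 responding down 1) was read at 1.02, 1.60 and 0.631 FPKM in WT and 22.8, 24.0 and 22.4 FPKM in the libraries labelled rbohD. For both genes the difference was of similar direction in untreated leaves at 60 min, at 3.06 and 3.23, and at 0 min, at 2.52 and 3.1. AT2G14247, also uncharacterized, differed by 2.80, AT1G62420, a DUF506 family member, by 2.81, and AT1G13609, a defensin-like gene, by 2.58. The remaining members of this group of 15 belong to the iron list and are given with it.

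The 15 genes with the largest downward difference differed less, by at most -2.38. NEET (chromosome 5, 21009347 to 21010345), which encodes an iron-sulfur cluster protein of organelles with a role in iron and ROS balance, stood at 43.2, 50.4 and 49.6 FPKM in WT and 11.9, 10.2 and 4.58 FPKM in the libraries labelled rbohD (log2 difference -2.38, SE 0.21, adjusted p 5.31e-09). FSD1 (chromosome 4, 12884300 to 12887011), the iron superoxide dismutase, stood at 729, 730.1 and 743 FPKM in WT and 292, 296 and 237 FPKM in the libraries labelled rbohD (log2 difference -1.42, SE 0.08, adjusted p 9.19e-13). Replicate 3 was the lowest of the libraries labelled rbohD for both, and the groups stayed apart. PORB, a light-dependent enzyme of chlorophyll synthesis, was read at 224, 235 and 224 FPKM in WT and 91.3, 92.8 and 86.0 FPKM in the libraries labelled rbohD (log2 difference -1.33). NYC1, a chlorophyll b reductase that acts in chlorophyll breakdown, was read at 24.3, 23.5 and 23.2 FPKM in WT and 9.34, 9.46 and 10.0 FPKM in the libraries labelled rbohD (log2 difference -1.22). An enzyme of chlorophyll synthesis and one of its breakdown were thus both lower. CIB1, a cryptochrome-interacting bHLH factor, differed by -1.25, LOL1, a relative of the cell death regulator LSD1, by -1.23, PHO1;H1, a phosphate exporter of the PHO1 family, by -1.22, and PME5, a pectin methylesterase, by -1.29. The others were AT5G57760 (uncharacterized, -1.76), AT1G09750 (an aspartyl protease, -1.53), AT3G46490 (a 2-oxoglutarate-dependent oxygenase, -1.48), MEE3 (a homeodomain-like protein, -1.43), AT3G24420 (an alpha/beta hydrolase, -1.41), AT3G43670 (a copper amine oxidase, -1.20) and AT5G59400 (a PGR5-like A protein, -1.20). All 30 genes named by size also passed the threshold against WT replicate 3 alone.

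**Figure D2:**
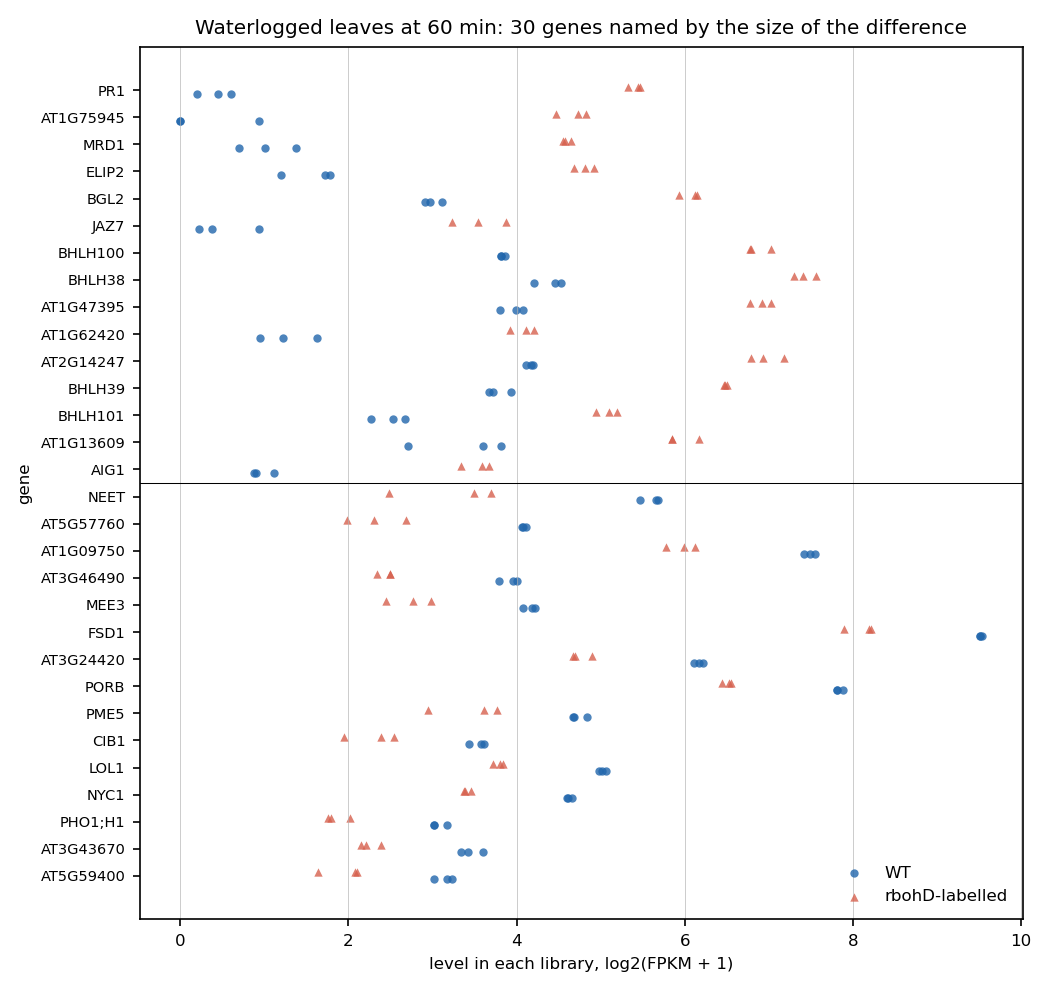
Level of each of the 30 genes named by size (rows) in each of the 6 libraries, in log2(FPKM + 1) on the horizontal axis; blue circles are the 3 WT libraries and orange triangles the 3 libraries labelled rbohD. The groups do not overlap for any row, which the naming rule required, and the gap is widest for PR1.

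Upstream sequences of JAZ7 and BHLH38 are printed because each holds a G-box, an element that was more frequent among the genes at least 2-fold higher. The windows are the 250 bases before the annotated gene start in the RefSeq annotation of TAIR10.1, written 5′ to 3′ on the gene's strand, and the capitals mark the match. The G-box CACGTG is bound by bHLH factors, among them the MYC factors of jasmonate signalling, and TTGAC is the core of the W-box bound by WRKY factors.
JAZ7 promoter, chr2:14572780-14573029, plus strand: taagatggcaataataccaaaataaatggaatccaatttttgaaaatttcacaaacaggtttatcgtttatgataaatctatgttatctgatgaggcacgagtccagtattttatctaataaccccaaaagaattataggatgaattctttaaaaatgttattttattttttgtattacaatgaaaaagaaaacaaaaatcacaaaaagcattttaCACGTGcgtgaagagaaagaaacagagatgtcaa
BHLH38 promoter, chr3:21085246-21085495, minus strand: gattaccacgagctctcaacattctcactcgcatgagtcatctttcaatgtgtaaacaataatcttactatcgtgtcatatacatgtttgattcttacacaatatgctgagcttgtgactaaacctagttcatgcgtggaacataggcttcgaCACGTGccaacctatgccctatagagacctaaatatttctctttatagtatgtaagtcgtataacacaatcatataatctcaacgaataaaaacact
The match begins 34 bases before the gene start in JAZ7 and 97 in BHLH38. Among the promoters of 16808 tested protein-coding nuclear genes, searched on both strands, 7.42% held CACGTG and 44.2% held TTGAC. Of the 213 such genes called at least 2-fold higher, 16.4% held CACGTG and 61.5% held TTGAC. Of the 62 called at least 2-fold lower, 6.45% held CACGTG and 27.4% held TTGAC. The CGCG element CGCGTT stood in 2.69% of all these promoters, in 7.04% of those higher and in 1.61% of those lower. The GCC-box GCCGCC, bound by ERF factors, stood in 1.95%, 1.41% and 0%. None of these 4 motifs contains another, the JAZ7 window also holds a TTGAC core, and a match in such a window is a description of the letters, not a binding site.

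Jasmonate genes were the largest group that was higher in waterlogged leaves labelled rbohD. Of 46 listed genes 43 were tested, and 34 were higher and 0 lower (34 and 0 against WT replicate 3 alone), where 14.6% of all tested genes were higher. Their median log2 difference was 1.13. Among the enzymes of jasmonate synthesis 10 of 13 were higher. AOC1, an allene oxide cyclase, was read at 23.1, 26.7 and 24.0 FPKM in WT and 132, 129 and 134 FPKM in the libraries labelled rbohD (log2 difference 2.38, SE 0.05, adjusted p 2.92e-19). No library labelled rbohD came near the WT range. The other synthesis genes that were higher ran from ACX1 at 0.36 to AOC3 at 1.99, and the values of LOX6 (0.02), JAR1 (-0.02), the enzyme that couples jasmonate to isoleucine, and AOC4 (-0.07) did not pass.

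Of the jasmonate repressors 9 of the 10 tested JAZ genes were higher, from JAZ12 at 0.25 to JAZ7 at 3.04, and JAZ11 (-0.16) did not pass. In perception and signalling the transcription factor MYC2 was higher (1.63), while the receptor gene COI1 (0.01), MYC3 (0.09) and MYC4 (-0.14) did not pass. Genes that inactivate or recycle jasmonates were higher in 6 of 7. AT5G05600, an oxygenase of the 2-oxoglutarate-dependent superfamily, was read at 8.08, 9.21 and 8.83 FPKM in WT and 52.7, 49.1 and 52.9 FPKM in the libraries labelled rbohD (log2 difference 2.44, SE 0.09, adjusted p 1.99e-15). Output genes were higher in 8 of 9, led by TAT3, a tyrosine aminotransferase, at 0.742, 0.459 and 0.375 FPKM in WT and 5.48, 6.83 and 4.41 FPKM in the libraries labelled rbohD (log2 difference 2.1, SE 0.10, adjusted p 1.95e-13). PDF1.2, a defensin, did not pass (0.50, adjusted p 0.0799). Genes that were higher were thus found among synthesis, repression, turnover and output, while 3 of the 4 perception genes did not pass.

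**Figure D3:**
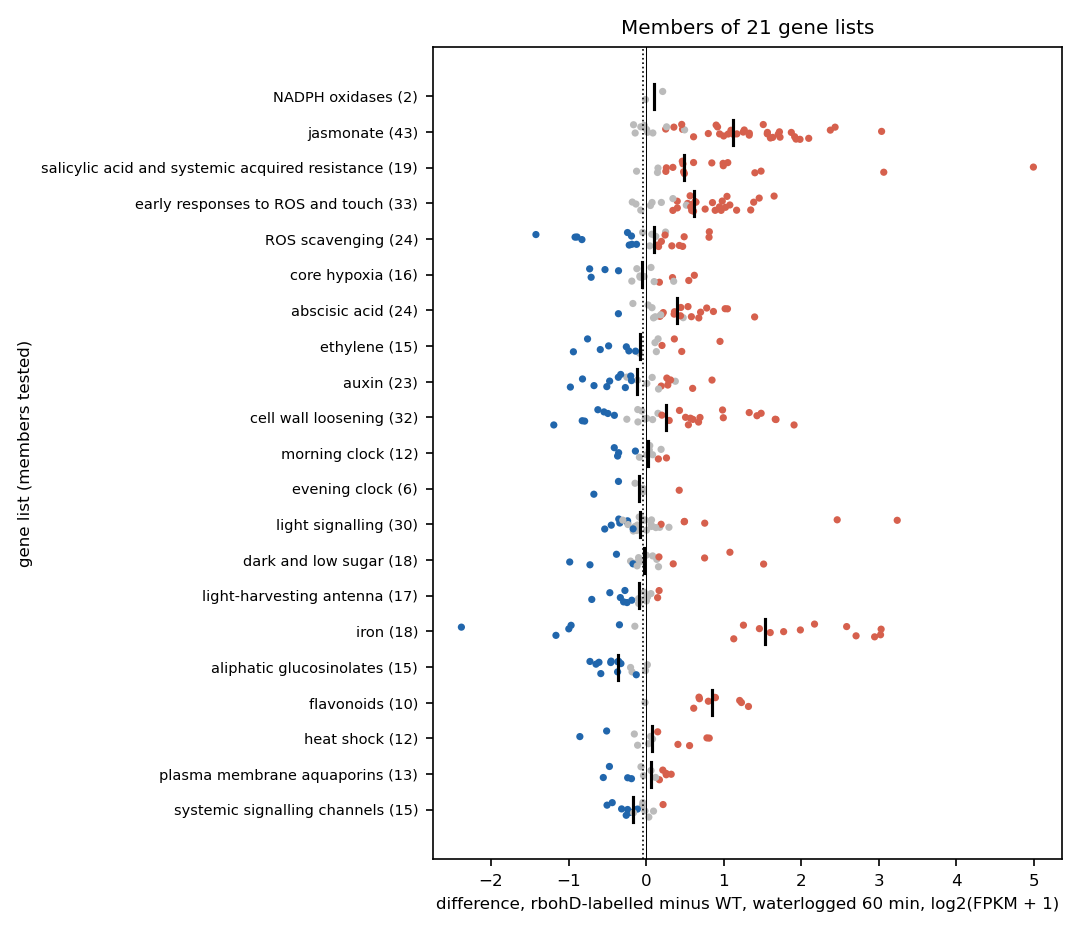
Log2 difference (libraries labelled rbohD minus WT, waterlogged 60 min, log2(FPKM + 1)) of each tested member of 21 gene lists; orange points were called higher, blue points lower, grey points neither, black bars are list medians and the dotted line is the median of all tested genes at -0.04. Jasmonate and iron members reach furthest to the right as groups, and aliphatic glucosinolate members lie mostly to the left.

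Salicylic acid genes were also higher. Of 24 listed genes 19 were tested, 16 were higher and 0 lower (15 and 0 against WT replicate 3 alone), with a median of 0.49. All 4 tested synthesis genes were higher, from ICS1 (0.26), the isochorismate synthase at the head of the pathway, to EDS5, its plastid exporter. EDS5 was read at 2.23, 1.97 and 2.03 FPKM in WT and 6.92, 6.98 and 9.07 FPKM in the libraries labelled rbohD (log2 difference 1.48, SE 0.12, adjusted p 9.54e-10). Of the regulators 8 of 10 were higher. SARD1, a transcription factor that turns on ICS1, was read at 3.93, 4.57 and 4.25 FPKM in WT and 12.9, 11.6 and 14.3 FPKM in the libraries labelled rbohD (log2 difference 1.4, SE 0.09, adjusted p 4.19e-11), and the lipase-like proteins PAD4 (0.85), SAG101 (0.61) and EDS1 (0.49) were higher as well. The salicylic acid receptor gene NPR1 did not pass (0.15, adjusted p 0.173). Of the outputs PR1, BGL2, PR5 (0.99) and NUDT6 (0.47) were higher, and GRXS13 was not (-0.12).

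Early responses to ROS and touch were also higher. Of 39 listed genes 33 were tested, 25 were higher and 0 lower (22 and 0 against WT replicate 3 alone), with a median of 0.61. Among transcription factors WRKY46 was read at 1.14, 0.939 and 0.996 FPKM in WT and 6.66, 4.54 and 5.07 FPKM in the libraries labelled rbohD (log2 difference 1.65, SE 0.11, adjusted p 2.84e-11), WRKY18 at 21.7, 22.9 and 24.1 FPKM in WT and 66.4, 64.8 and 62.8 FPKM in the libraries labelled rbohD (log2 difference 1.46) and WRKY40 at 3.56, 3.68 and 4.1 FPKM in WT and 11.4, 10.7 and 12.5 FPKM in the libraries labelled rbohD (log2 difference 1.39). These WRKY factors act in defence, and their groups did not overlap. The zinc fingers ZAT10 (0.95) and ZAT12 (0.86), standard markers of ROS and systemic stress signals, were higher, and ZAT6 (0.08) and WRKY53 (-0.13) did not pass. Calcium sensors and kinases were higher in 5 of 7, among them TCH3 (0.61), TCH2 (0.57) and MPK3 (0.40). TCH4, a touch-inducible xyloglucan endotransglucosylase, was read at 44.2, 45.5 and 47.5 FPKM in WT and 109.8, 115 and 131 FPKM in the libraries labelled rbohD (log2 difference 1.35, SE 0.07, adjusted p 4.91e-13).

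Cell wall genes divided by family. All 6 EXORDIUM family genes were higher (6 against WT replicate 3 alone), with a median of 0.80. PHI-1, a phosphate-inducible member, was read at 14.8, 13.7 and 14.1 FPKM in WT and 48.6, 45.8 and 48.6 FPKM in the libraries labelled rbohD (log2 difference 1.68, SE 0.09, adjusted p 9.43e-13), and EXO at 23.8, 21.5 and 21.2 FPKM in WT and 58.5, 56.6 and 78.2 FPKM in the libraries labelled rbohD (log2 difference 1.48, SE 0.10, adjusted p 4.71e-11). Of 13 xyloglucan endotransglucosylase/hydrolase (XTH) genes 8 were higher and 1 lower (6 and 1 against WT replicate 3 alone). XTH23 was read at 1.99, 2.52 and 1.79 FPKM in WT and 10.7, 8.79 and 12.6 FPKM in the libraries labelled rbohD (log2 difference 1.91), XTH18 at 10.8, 11.5 and 11.4 FPKM in WT and 36.2, 38.2 and 39.4 FPKM in the libraries labelled rbohD (log2 difference 1.67), and the member that was lower was XTH8 (-0.62). Of 13 expansin genes, whose products loosen the wall, 3 were higher and 6 lower (2 and 6 against WT replicate 3 alone). EXPA8 was read at 48.1, 48.0 and 42.9 FPKM in WT and 20, 18.4 and 20.8 FPKM in the libraries labelled rbohD (log2 difference -1.19, SE 0.05, adjusted p 1.72e-14) and EXPA1 at 308, 303 and 298 FPKM in WT and 168, 177 and 167 FPKM in the libraries labelled rbohD (log2 difference -0.82, SE 0.03, adjusted p 1.18e-15), whereas the expansin-like genes EXLA1 (1.43) and EXLA2 (1.33) were higher.

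Iron deficiency genes were higher and iron storage genes mostly lower. All 12 genes of the iron deficiency response were higher, with a median of 2.08, and 5 of 6 genes of iron storage and iron-sulfur handling were lower, with a median of -0.98; the counts were the same against WT replicate 3 alone. The bHLH factors of subgroup Ib, which turn on iron uptake, led the list. BHLH38 (chromosome 3, 21084035 to 21085245) was read at 20.9, 17.4 and 22.1 FPKM in WT and 156, 169 and 187 FPKM in the libraries labelled rbohD (log2 difference 3.03, SE 0.08, adjusted p 1.24e-18). BHLH100 was read at 13.5, 13.1 and 13.1 FPKM in WT and 109, 109.8 and 129 FPKM in the libraries labelled rbohD (log2 difference 3.03), BHLH39 at 11.7, 14.3 and 12.2 FPKM in WT and 90.0, 87.5 and 88.2 FPKM in the libraries labelled rbohD (log2 difference 2.71) and BHLH101 at 4.78, 3.82 and 5.39 FPKM in WT and 33.2, 29.8 and 35.7 FPKM in the libraries labelled rbohD (log2 difference 2.59). The lowest library labelled rbohD exceeded the highest of WT for each of the 4 factors, which the rule for genes named by size required. AT1G47395 (chromosome 1, 17382998 to 17383830), uncharacterized in RefSeq, was read at 15.9, 12.9 and 15.0 FPKM in WT and 120.0, 129 and 109 FPKM in the libraries labelled rbohD (log2 difference 2.95, SE 0.07, adjusted p 9.25e-19).

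The remaining members of the iron deficiency response ran from OPT3, a phloem iron transporter, at 1.13 to AT1G47400 at 2.17, and included FRO3, a ferric chelate reductase (1.99), BTS, a ubiquitin ligase that senses iron (1.60), and PYE, a bHLH regulator (1.26). Among storage genes VTL2, a vacuolar iron transporter family gene, was read at 5.53, 4.99 and 5.77 FPKM in WT and 1.98, 2.86 and 1.06 FPKM in the libraries labelled rbohD (log2 difference -1.16, SE 0.16, adjusted p 6.37e-06). FER4, a ferritin that stores iron, was read at 16.3, 16.1 and 15.4 FPKM in WT and 7.92, 7.31 and 7.70 FPKM in the libraries labelled rbohD (log2 difference -0.97, SE 0.07, adjusted p 2.1e-10). VTL1 (-1.0) and FER1 (-0.34) were lower too, and FER3 did not pass (-0.14). Of these 12 deficiency genes, 33.3% held a G-box in the 250 bases upstream, as in the BHLH38 sequence above. With 12 genes this is 4 promoters, against 7.42% of all tested protein-coding nuclear genes. The other lists searched held it less often among their members called higher. The shares were 14.7% of 34 jasmonate genes, 6.25% of 16 salicylic acid genes and 4% of 25 early ROS and touch genes.

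ROS-scavenging enzymes went in both directions. Of 24 tested genes 10 were higher and 9 lower (8 and 5 against WT replicate 3 alone), with a median of 0.10. Among superoxide dismutases, iron-dependent FSD1 was lower as given above, and the copper/zinc enzymes of the cytosol and chloroplast were higher, CSD1 at 51.2, 54.0 and 57.2 FPKM in WT and 97.4, 108 and 83.2 FPKM in the libraries labelled rbohD (log2 difference 0.81, SE 0.10, adjusted p 1.18e-06) and CSD2 at 47.1, 48.3 and 47.8 FPKM in WT and 64.4, 73.5 and 62.5 FPKM in the libraries labelled rbohD (log2 difference 0.47, SE 0.08, adjusted p 9.42e-05). FSD2 (-0.24) and manganese-dependent MSD1 (-0.19) were lower by small amounts, and FSD3 (0.13) and the copper/zinc enzyme CSD3 (0.08) did not pass. The catalases, which break down hydrogen peroxide, divided as well. CAT3 was read at 669, 667 and 677 FPKM in WT and 367, 355 and 362 FPKM in the libraries labelled rbohD (log2 difference -0.89, SE 0.04, adjusted p 2.51e-14), CAT1 differed by -0.83, and CAT2 was higher (0.43). The plastid ascorbate peroxidase SAPX was read at 46.8, 42.1 and 44.0 FPKM in WT and 22, 21.8 and 25.3 FPKM in the libraries labelled rbohD (log2 difference -0.92), while the cytosolic APX1 did not pass (-0.04). DHAR1, a dehydroascorbate reductase (0.49), and GPX7, a plastid peroxidase of the glutathione peroxidase family (0.82), were higher. Of 10 NADPH oxidase genes only RBOHD and RBOHF were above the level tested, and neither passed, nor did they against WT replicate 3 alone; RBOHF was read at 2.74, 2.44 and 2.42 FPKM in WT and 2.70, 3.5 and 3.13 FPKM in the libraries labelled rbohD (adjusted p 0.0544).

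Specialised metabolism divided between flavonoids and glucosinolates. Of 16 flavonoid genes 10 were tested, 9 were higher and 0 lower (8 and 0 against WT replicate 3 alone), with a median of 0.85. CHS, the chalcone synthase that opens the pathway, was read at 39.2, 42.1 and 38.3 FPKM in WT and 89.1, 84.5 and 108 FPKM in the libraries labelled rbohD (log2 difference 1.21, SE 0.07, adjusted p 2.74e-12), and FLS1, a flavonol synthase, at 4.37, 3.91 and 4.49 FPKM in WT and 10.8, 11.2 and 14.6 FPKM in the libraries labelled rbohD (log2 difference 1.32, SE 0.09, adjusted p 3.16e-11). LDOX (1.23) and TT19 (0.89), which act in anthocyanin synthesis and transport, and the MYB regulator PAP1 (0.62) were also higher. Of 15 genes of aliphatic glucosinolates, sulfur-rich defence compounds made from methionine, 0 were higher and 11 lower (0 and 9 against WT replicate 3 alone), with a median of -0.36. MYB28, the regulator of the pathway, was read at 40.7, 40.1 and 40.2 FPKM in WT and 25.3, 23.7 and 27.4 FPKM in the libraries labelled rbohD (log2 difference -0.65, SE 0.05, adjusted p 1.57e-09), and the transporter gene BAT5 at 30.5, 29.2 and 32.9 FPKM in WT and 17.5, 16 and 21.7 FPKM in the libraries labelled rbohD (log2 difference -0.72, SE 0.09, adjusted p 1.96e-06). MAM1 (-0.61) and BCAT4 (-0.58), enzymes of methionine chain elongation, were lower.

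Of the other hormones abscisic acid showed a mostly upward difference. Of 24 tested genes 16 were higher and 1 lower (12 and 1 against WT replicate 3 alone), with a median of 0.41. Output genes made up 11 of the 16: RD20, a dehydration-induced caleosin, was read at 15.9, 15.4 and 14.2 FPKM in WT and 40.3, 43.1 and 41.5 FPKM in the libraries labelled rbohD (log2 difference 1.4, SE 0.06, adjusted p 4.37e-14), and the cold and dehydration genes COR15B (1.02) and KIN2 (0.87) were higher. The 4 tested synthesis genes did not pass, with NCED3, the rate-limiting enzyme, at 0.08. The phosphatase gene HAI1 was higher (1.05) and the factor ABF4 lower (-0.36).

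Ethylene genes were higher in 4 and lower in 7 of 15 (3 and 4 against WT replicate 3 alone), with a median of -0.08. The receptor genes ERS1, at 10.4, 9.96 and 9.46 FPKM in WT and 5.99, 6.17 and 6.62 FPKM in the libraries labelled rbohD (log2 difference -0.59, SE 0.07, adjusted p 1.89e-07), and ERS2 (-0.94) were lower, as was EBF2 (-0.75), an F-box gene of ethylene signalling, while the synthesis genes ACS11 (0.46) and ACS6 (0.37) were higher. Auxin genes were higher in 7 and lower in 10 of 23 (5 and 6 against WT replicate 3 alone), with a median of -0.11. PIN7, an auxin exporter, was read at 39.1, 38.0 and 38.1 FPKM in WT and 19.5, 16.5 and 21.4 FPKM in the libraries labelled rbohD (log2 difference -0.98, SE 0.06, adjusted p 1.23e-11), and IAA6, an auxin response repressor, at 7.89, 8.51 and 8.73 FPKM in WT and 14.7, 18.1 and 15.1 FPKM in the libraries labelled rbohD (log2 difference 0.85, SE 0.17, adjusted p 0.000459).

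Core hypoxia genes, which respond to low oxygen, were higher and lower in equal number. Of 32 listed genes 16 were tested, 4 were higher and 4 lower (2 and 3 against WT replicate 3 alone), with a median of -0.05. ADH1, the alcohol dehydrogenase of fermentation, was read at 1.77, 2.22 and 2.2 FPKM in WT and 3.93, 3.46 and 3.74 FPKM in the libraries labelled rbohD (log2 difference 0.62, SE 0.11, adjusted p 6.74e-05). Of the group VII ERF factors that sense oxygen through their stability, RAP2.3 was higher at 109.6, 99.3 and 104 FPKM in WT and 160.1, 156 and 144 FPKM in the libraries labelled rbohD (log2 difference 0.55, SE 0.05, adjusted p 2.84e-09), RAP2.12 was lower at 32.5, 33.0 and 34.0 FPKM in WT and 19.5, 19.1 and 21.2 FPKM in the libraries labelled rbohD (log2 difference -0.71, SE 0.07, adjusted p 6.23e-08), and RAP2.2 did not pass (-0.02). SUS1 (0.34) and AlaAT1 (0.17) did not pass against WT replicate 3 alone, and AlaAT1 also not without replicate 3 labelled rbohD (0.10, adjusted p 0.0703). Genes of darkness and low sugar were higher in 5 and lower in 4 of 18 (4 and 2 against WT replicate 3 alone). MIOX2, a myo-inositol oxygenase, was read at 18.8, 17.4 and 18.4 FPKM in WT and 49.9, 52.2 and 60.1 FPKM in the libraries labelled rbohD (log2 difference 1.52, SE 0.13, adjusted p 4.04e-09), and BT2, a sugar-regulated BTB protein, at 25.2, 27.8 and 28.3 FPKM in WT and 13.2, 14.0 and 12.5 FPKM in the libraries labelled rbohD (log2 difference -0.98, SE 0.08, adjusted p 5.62e-10).

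Light-signalling and clock genes went in both directions, and the early light-induced proteins differed most. Among all tested genes 14.6% were higher and 20% lower, beside the counts that follow. Of 30 light-signalling genes 6 were higher and 7 lower (5 and 3 against WT replicate 3 alone), with a median of -0.08. ELIP1 was read at 1.13, 0.963 and 0.614 FPKM in WT and 9.90, 12 and 7.07 FPKM in the libraries labelled rbohD (log2 difference 2.47, SE 0.15, adjusted p 9.45e-12), beside ELIP2 above, whereas the light-signalling factors HY5 (-0.09) and HYH (-0.01) did not pass. Of 17 light-harvesting antenna genes 2 were higher and 7 lower (2 and 6 against WT replicate 3 alone), with the largest difference in LHCB2.4 at 2186, 2171 and 2087 FPKM in WT and 1393, 1403 and 1181 FPKM in the libraries labelled rbohD (log2 difference -0.70, SE 0.05, adjusted p 1.07e-10). Close LHCB copies can share reads, which makes their separate values uncertain. Morning-phased clock genes were higher in 2 and lower in 4 of 12 (1 and 2 against WT replicate 3 alone), and of 6 evening genes LUX was higher (0.43) and ELF3 (-0.36) and GI (-0.67) were lower (1 and 2 against WT replicate 3 alone). Without replicate 2 labelled rbohD, ELF3 did not pass (-0.28, adjusted p 0.0539).

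Heat shock genes were higher in 5 and lower in 2 of 12 (4 and 1 against WT replicate 3 alone), with HSP90.1 at 0.79, HSFB1 at 0.82 and HSP18.2 at -0.85. Plasma membrane aquaporins were higher in 5 and lower in 4 of 13 (5 and 1 against WT replicate 3 alone), all by less than 1.5-fold, with the values ranging from -0.55 in PIP2-8 to 0.32 in PIP2-3. Channels, pumps and receptors of systemic signalling were higher in 1 and lower in 8 of 15 (0 and 7 against WT replicate 3 alone), with a median of -0.16. The proton pump AHA2 was read at 46.4, 43.5 and 44.6 FPKM in WT and 31.2, 27.8 and 35.5 FPKM in the libraries labelled rbohD (log2 difference -0.50, SE 0.06, adjusted p 2.11e-07), and the glutamate receptor-like channels GLR3.6 (-0.44), GLR3.3 (-0.26) and GLR3.1 (-0.24), of a family that acts in wound signalling between leaves, were lower. MSL3, a mechanosensitive channel, was the member that was higher (0.22), and it did not pass against WT replicate 3 alone.

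Markers of leaf cell types were checked against the labelled tissue. The 5 mesophyll markers summed to 29081 to 29748 FPKM in WT and 32359 to 34096 FPKM in the libraries labelled rbohD. Of root markers CASP1 and NRT2.1 were listed at 0 in all 6 libraries, and the tested ones, BGLU23 (-0.01) and SCR (-0.03), did not pass. The 8 listed root markers summed to 91.3 to 94.7 FPKM in WT and 86.5 to 105 FPKM in the libraries labelled rbohD. Some root markers were thus read in these leaves, but only 2 of the 8, BGLU23 and SCR, averaged 1 FPKM or more over the 30 libraries. Whether the samples held any root RNA was not tested. All 5 tested xylem markers were lower in the libraries labelled rbohD (5 against WT replicate 3 alone), and the 6 listed ones summed to 77.0 to 83.3 FPKM in WT and 39.3 to 44.7 FPKM in the libraries labelled rbohD. XCP1, a protease of maturing xylem vessels, was read at 18.9, 18 and 15.1 FPKM in WT and 7.69, 7.95 and 6.35 FPKM in the libraries labelled rbohD (log2 difference -1.14, SE 0.10, adjusted p 2.35e-09), and IRX3, a cellulose synthase of secondary walls, at 3.81, 4.12 and 3.40 FPKM in WT and 2.08, 1.75 and 2.63 FPKM in the libraries labelled rbohD (log2 difference -0.61, SE 0.09, adjusted p 8.85e-06). In bulk leaves fewer cells of a type and less RNA per cell cannot be told apart. Guard cell markers were higher in 1 and lower in 2 of 6, phloem markers higher in 1 and lower in 1 of 7, and epidermis markers higher in 1 and lower in 3 of 7; against WT replicate 3 alone these counts were 1 and 0, 1 and 1, and 1 and 3. Among all tested genes 14.6% were higher and 20% lower. Of the tested phloem markers 28.6% were called, against 34.6% of all tested genes. The part of xylem content in the lower genes was not tested.

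Compared with the same genotypes in other conditions, the waterlogged difference shared direction with 0 min in 88.8% of the genes called in both, and with untreated leaves at 60 min in 60.2%. At 60 min without waterlogging 6747 genes (38.6%) differed between the genotypes, and at 0 min 5668 (32.4%). Of the 6053 genes called in waterlogged leaves, 3160 (52.2%) were also called in untreated leaves at 60 min, which is 46.8% of the calls there; 1901 had the same direction and 1259 the opposite one. With the 0 min calls 3105 were shared, 51.3% of the waterlogged calls and 54.8% of those at 0 min; 2758 had the same direction and 347 the opposite one. In all 3 conditions 578 genes were higher and 741 lower. The difference between the waterlogged and the untreated genotype difference at 60 min, tested as an interaction, passed the threshold in 6017 genes (34.4%). At 0 min and in untreated leaves at 60 min, the level of the nuclear rRNA gene given above coincided with the genotype. It was 4050 to 5466 FPKM in the libraries labelled rbohD and 1473 to 2640 FPKM in WT. Genotype and rRNA level therefore cannot be told apart in these libraries, which enter the shared directions and the interaction.

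The lists differed in whether their direction was the same in each condition. As background, of all 17491 tested genes 2865 were higher and 2803 lower at 0 min. In untreated leaves at 60 min 3318 were higher and 3429 lower, and in waterlogged leaves 2557 and 3496. The interaction was positive in 2636 of them and negative in 3381. Iron deficiency genes were higher in all 12 in each condition, with medians of 1.83 at 0 min, 1.37 in untreated leaves and 2.08 in waterlogged leaves, and the interaction was positive in 9 and negative in 0. The 6 iron storage genes had medians of -0.42, 0.03 and -0.98 in the same order, with 1, 2 and 0 higher and 5, 1 and 5 lower. Their interaction was positive in 0 and negative in 6. Flavonoid genes had medians of 1.15, 0.88 and 0.85 in the same order, with 10, 6 and 9 of 10 higher and 0, 2 and 0 lower. The members lower in untreated leaves were DFR (-0.34) and LDOX (-0.38, adjusted p 0.0339), which were higher in waterlogged leaves (0.89 and 1.23). Jasmonate genes had medians of 2.42, -0.89 and 1.13: 38 of 43 were higher and 0 lower at 0 min, 4 were higher and 36 lower in untreated leaves at 60 min, and 34 were higher and 0 lower in waterlogged leaves. The interaction of jasmonate genes was positive in 38 and negative in 3. Early ROS and touch genes had medians of 1.06, -0.88 and 0.61, with 27, 1 and 25 of 33 higher and 1, 25 and 0 lower. Their interaction was positive in 28 and negative in 0. Salicylic acid genes had medians of 0.11, -0.30 and 0.49, with 6, 3 and 16 of 19 higher and 0, 9 and 0 lower. Aliphatic glucosinolate genes were higher in 14 and lower in 1 of 15 at 0 min, higher in 4 and lower in 8 in untreated leaves, and higher in 0 and lower in 11 in waterlogged leaves.

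**Figure D4:**
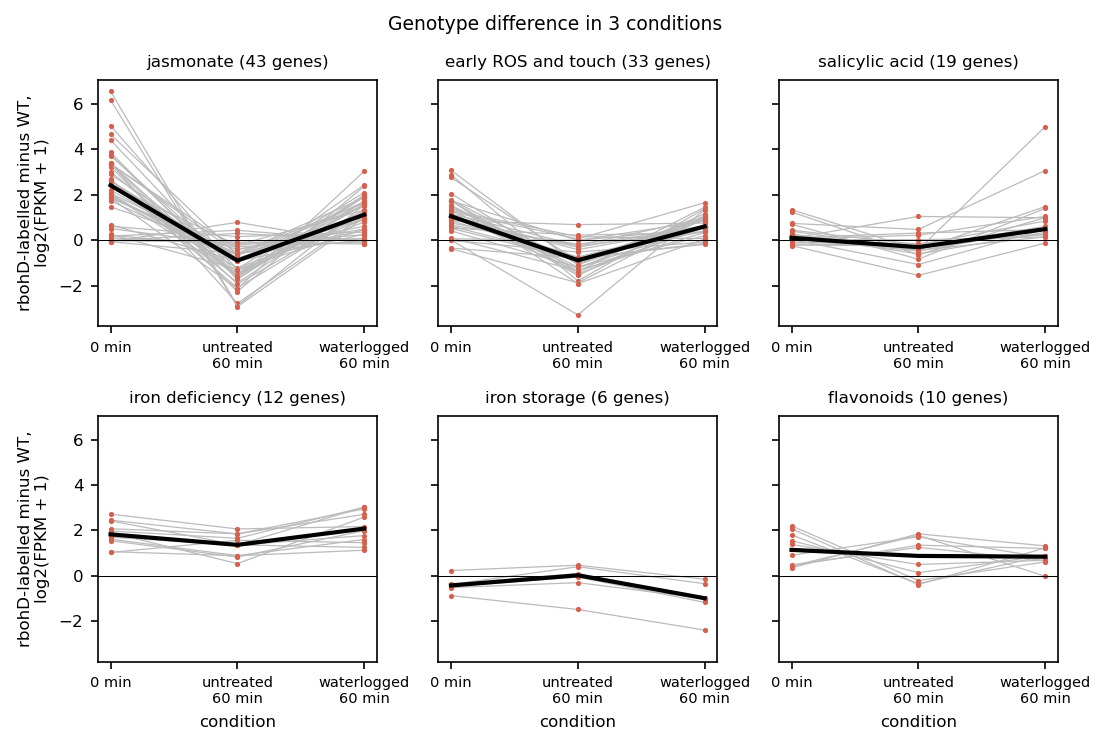
Genotype difference (vertical axis, log2(FPKM + 1), libraries labelled rbohD minus WT) of the tested members of 6 gene groups at 0 min, in untreated leaves at 60 min and in waterlogged leaves at 60 min (horizontal axis); grey lines join the values of a gene and the thick black line joins the medians. Jasmonate and early ROS and touch genes lie above 0 at 0 min, below it in untreated leaves and above it again in waterlogged leaves, while iron deficiency genes stay above 0.

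The levels behind these differences were as follows. AOC1 stood at 18.6 ± 1.05 FPKM in WT at 0 min (mean ± SD, n = 3), 47.1 ± 1.93 in untreated WT at 60 min and 24.6 ± 1.89 in waterlogged WT, and in the libraries labelled rbohD at 184 ± 2.05, 9.11 ± 0.203 and 132 ± 2.38 FPKM in the same order. The level in untreated leaves labelled rbohD was the lowest of the 6 groups, and those at 0 min and after waterlogging were the highest. PHI-1 stood at 7.98 ± 0.256, 18.3 ± 1.14 and 14.2 ± 0.561 FPKM in WT and at 13.1 ± 1.03, 1.23 ± 0.463 and 47.6 ± 1.58 FPKM in the libraries labelled rbohD, while WT waterlogged for 10 and 30 min reached 114 ± 6.86 and 158 ± 8.31 FPKM. The level of PHI-1 in waterlogged leaves labelled rbohD at 60 min thus lay above WT at 60 min and below WT at 10 and 30 min. TCH4 followed the same order, at 327 ± 8.18, 499 ± 1.64 and 45.7 ± 1.69 FPKM in WT at 10, 30 and 60 min of waterlogging and 118 ± 10.9 FPKM in the libraries labelled rbohD at 60 min. No libraries labelled rbohD were sampled at 10 or 30 min, so earlier genotype differences were not measured.

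PR1 stood apart from these. It was read at 4.68 ± 0.831, 4.04 ± 1.24 and 0.344 ± 0.186 FPKM in WT at 0 min, untreated 60 min and waterlogged 60 min, and at 6.53 ± 1.1, 2.76 ± 0.678 and 41.7 ± 2.18 FPKM in the libraries labelled rbohD. Its genotype difference passed the threshold in neither of the other conditions (-0.41, adjusted p 0.173, untreated; 0.40, adjusted p 0.199, 0 min), and the interaction was 5.41 (SE 0.33, adjusted p 5e-12). BHLH38 was higher in the libraries labelled rbohD throughout, at 98.0 ± 0.798, 104 ± 2.25 and 171 ± 15.5 FPKM against 24.2 ± 1.26, 32.2 ± 1.39 and 20.1 ± 2.4 FPKM in WT. ELIP2 likewise differed by 1.41 at 0 min, 3.35 in untreated and 3.24 in waterlogged leaves, with an interaction of -0.11 (adjusted p 0.738). NEET and FSD1 were lower throughout: NEET differed by -0.87, -1.48 and -2.38, and FSD1 by -0.53, -1.05 and -1.42.

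**Figure D5:**
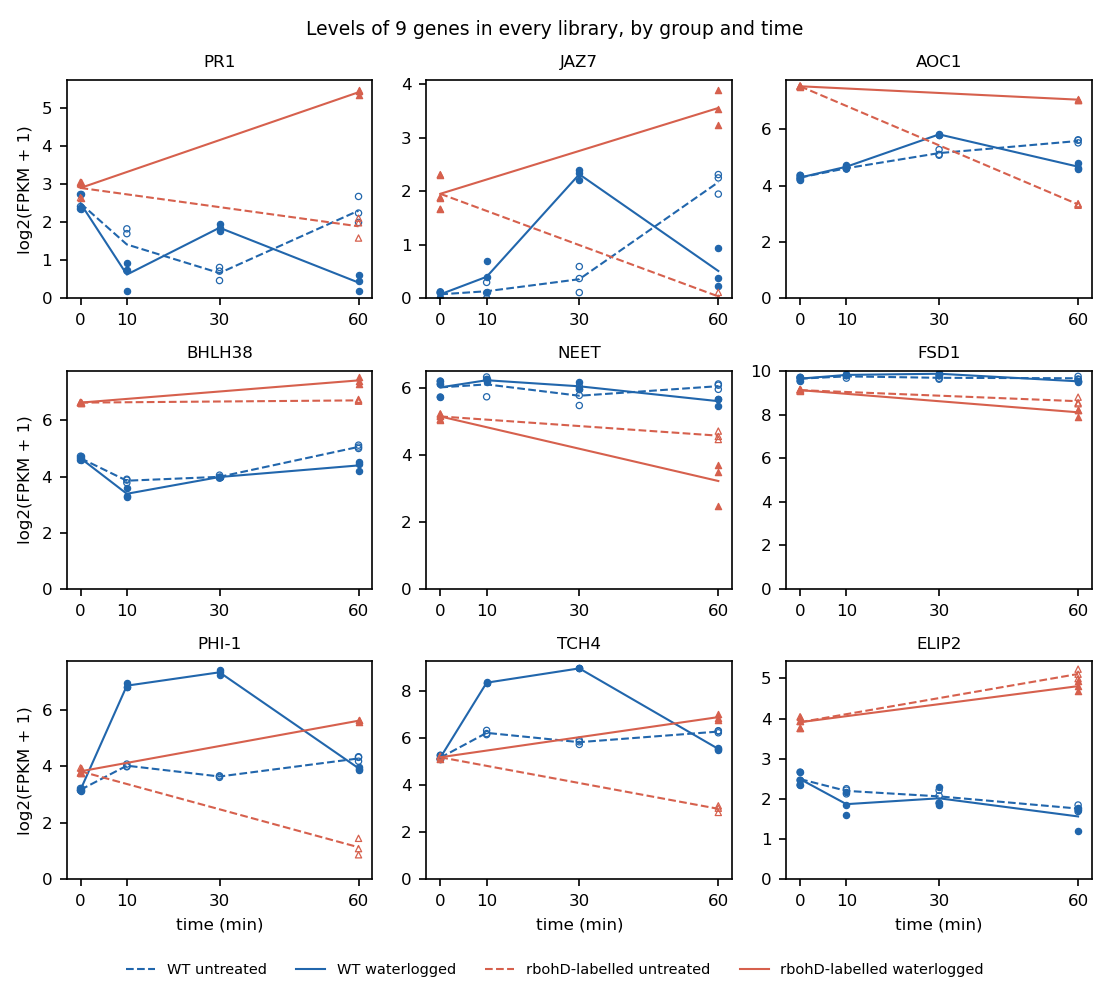
Level of 9 named genes (vertical axis, log2(FPKM + 1)) against time in min; points are libraries, lines join group means, blue circles are WT, orange triangles the libraries labelled rbohD, filled points and solid lines waterlogged and open points and dashed lines untreated leaves, with the 0 min group drawn in both series. PHI-1 and TCH4 peak in WT at 10 to 30 min of waterlogging, PR1 is highest in waterlogged leaves labelled rbohD, and BHLH38 and ELIP2 are higher in the libraries labelled rbohD at each shared time.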

How the data were processed

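Systemic leaves were profiled by RNA-seq. Per the submitters' processing notes Trim Galore 0.6.7, HISAT2 2.2.1, Cufflinks 2.2.1, Cuffdiff and TAIR10 were used, with settings, strand use and annotation not given in the sources used here. The deposited files hold FPKM per gene with confidence bounds, per the file headers; they are not counts, and how reads common to similar or overlapping genes were assigned is not given. Of 32826 rows, 2 duplicated identifiers and 2 genes not marked OK were dropped, leaving 32820. Between 10806 and 11517 genes are listed at 0 in each of the 6 libraries, which can be failed estimates for short genes.

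All 30 libraries (10 groups of 3) entered 1 limma model (limma 3.58.1, R 4.3.3) of log2(FPKM + 1) for the 17491 genes averaging 1 FPKM or more. Tests were two-sided, p-values were adjusted by Benjamini-Hochberg separately for each of 4 comparisons, and the threshold was 0.05. Figures were drawn with matplotlib 3.10.9 in Python 3.11.15, and tables were made with numpy 2.4.6 and pandas 2.3.3. The fit was tested on simulated data. Correlations between replicates were at least 0.988, and at most 0.0095% of values were identical in any pair, so no library was treated as a duplicate. Identifiers matched RefSeq TAIR10.1 in 99.1%, and of these 99.9% had the same boundaries.

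Genes were named by rule: among nuclear protein-coding genes called that average 5 FPKM or more in the 6 libraries and have groups that do not overlap, the 15 largest differences each way; up to 4 called members of each list each way; and RBOHD and RBOHF. Others in the lists are named by role, after their values were seen. The comparison and the lists were chosen with earlier results of these data known. Alternatives were the 6 libraries alone, the replicate number as a block, the 18S rRNA side (over 3000 FPKM of AT3G41768) as a term or held fixed, leaving out each library, a pseudocount of 0.1, no filter, a minimum mean of 5 FPKM, quantile normalization, equal protein-coding totals, and trend with robust estimation. Some items are not reported here.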

Additional observations from a re-analysis of the deposited data

Results flagged for a closer look

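For 27 of the 30 genes named by the size of their difference, the genotype difference itself differed between waterlogged and untreated leaves at 60 min (limma interaction, Benjamini-Hochberg over 17491 genes, the largest adjusted p among them 0.0347). These genes were chosen for large differences in waterlogged leaves, which enter the interaction, so its direction is not independent of the choice. The interaction passed the threshold in 34.4% of all tested genes, and in 240 of the 303 called genes that differed at least 2-fold. Each value below is the log2 genotype difference in waterlogged leaves minus that in untreated leaves.

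Among genes higher in waterlogged leaves labelled rbohD, the interaction was 5.41 for PR1 and 5.17 for JAZ7, whose untreated differences were -0.41 and -2.13. It was 2.66 for AIG1 and 2.59 for BGL2. The iron genes gave 2.05 for BHLH101, 1.67 for BHLH100, 1.37 for BHLH38, 1.1 for AT1G47395 and 0.86 for BHLH39. It was 1.90 for AT1G62420, 1.66 for AT2G14247 and 1.31 for AT1G75945 (adjusted p 0.0193).

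Among genes lower in waterlogged leaves labelled rbohD, it was -1.4 for MEE3, -1.08 for CIB1, -1.01 for AT5G57760 and -0.99 for NYC1. It was -0.91 for AT5G59400, -0.91 for NEET, -0.88 for AT1G09750, -0.81 for PME5 and -0.76 for AT3G46490. It was -0.69 for AT3G24420, -0.66 for AT3G43670, -0.42 for PHO1;H1, -0.37 for FSD1, -0.33 for LOL1 and -0.17 for PORB. PORB had the smallest of these values, beside differences of -1.16 in untreated and -1.33 in waterlogged leaves.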

How the results depend on the processing

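The waterlogged count of 6053 genes fell to 3266 in a fit of the 6 libraries alone and to 3599 with the rRNA side as a term or held fixed, settings that use fewer degrees of freedom or fewer WT libraries. With the rRNA side as a term the untreated count went from 6747 to 3079 and the 0 min count from 5668 to 2299. In those comparisons the rRNA side coincides with the genotype, and the term rests on waterlogged WT replicate 3 alone. This setting therefore cannot separate the rRNA side from the genotype there. Leaving out 1 library gave 5207 to 6068 calls in waterlogged leaves, 5805 to 6179 in untreated leaves, 4896 to 5033 at 0 min and 5374 to 6375 for the interaction. Replicate numbers do not pair the waterlogged libraries (correlations of same-numbered deviations 0.01, 0.01 and -0.04); with the replicate block the 4 counts were 5968, 6707, 5584 and 5945. The other settings kept each count within 1.5 times.

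Of 145 named genes 114 kept direction and side of the threshold in each of the 16 settings that tested them. Only 112 of the 145 were tested with a minimum mean of 5 FPKM. The rRNA side as a term and held fixed gave the same counts in the waterlogged comparison, so they are not separate checks. No named gene changed sign while called; the difference of CAB3 was 0 under quantile normalization, where RBOHF passed (0.28). Leaving out a library ended calls for HRA1, SAUR19, SAUR14, RVE1, DIN4, TPS10, CCA1, CAB3, ELF3, AlaAT1 and EIN3, and RBOHF passed without WT replicate 1 (0.26) or replicate 1 labelled rbohD (0.29). Genes near the filter and genes listed at 0 are the least precise.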

Other observations

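A stretch of 10029 bases on chromosome 1 (17382998 to 17393026) holds 4 tested genes, and all 4 were higher in waterlogged leaves labelled rbohD. They are AT1G47395 and AT1G47400 of the iron deficiency list and the long noncoding RNA genes AT1G07367 (chromosome 1, 17388989 to 17389500) and AT1G07373 (chromosome 1, 17392374 to 17393026). AT1G07367 was read at 5.60, 3.41 and 3.82 FPKM in WT and 39.7, 40.9 and 41.7 FPKM in the libraries labelled rbohD (log2 difference 3.01, SE 0.20, adjusted p 6.06e-11). AT1G07373, on the opposite strand, was read at 4.56, 4.62 and 5.78 FPKM in WT and 23.4, 23.5 and 21.5 FPKM in the libraries labelled rbohD (log2 difference 2.00, SE 0.20, adjusted p 3.06e-08). AT1G07367 differed by 2.23 at 0 min and 1.59 in untreated leaves, beside 2.45 and 1.85 for AT1G47395, so all of these were higher in each condition. The flanking tested genes differed by 0.29 (AT1G47380, adjusted p 0.0105), -0.50 (AT1G47410, adjusted p 0.0338) and 0.03 (AT1G47420, adjusted p 0.664). The stretch was noticed after the values were seen and was not tested as a unit. It begins and ends at genes that were higher, so its count of 4 depends on where it was cut. Of all tested genes 14.6% were higher.

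Some noncoding and organelle genes differed too. AT3G15536, a noncoding RNA, was read at 1.06, 0.395 and 0.210 FPKM in WT and 8.60, 9.17 and 4.84 FPKM in the libraries labelled rbohD (log2 difference 2.45, SE 0.28, adjusted p 3.06e-07), with differences of 0.32 in untreated leaves and -0.32 at 0 min that did not pass. AT4G04223, also noncoding, was lower at 35, 38.6 and 38.2 FPKM in WT and 11.0, 17.4 and 15.8 FPKM in the libraries labelled rbohD (log2 difference -1.30, SE 0.17, adjusted p 1.89e-06). AT2G01021, an uncharacterized nuclear gene that did not pass, was listed at 0 in WT replicates 1 and 2, and read at 3652 FPKM in WT replicate 3 and 1936, 1582 and 2686 FPKM in the libraries labelled rbohD, the same division as the 18S rRNA. The mitochondrial genes ATMG00020 and ATMG01390 divided the same way: ATMG01390 was read at 29.9, 30.3 and 85.6 FPKM in WT and 81.9, 80.2 and 71.3 FPKM in the libraries labelled rbohD. So did ATCG00920, ATCG00950, ATCG01180 and ATCG01210, which were the 4 chloroplast genes called higher. ATCG00950 was read at 294, 182 and 774 FPKM in WT and 727, 885 and 588 FPKM in the libraries labelled rbohD. Of 33 tested mitochondrial genes 6 were higher and 0 lower, and of 66 chloroplast genes 4 were higher and 6 lower, both smaller shares than the 34.6% of all tested genes. Against WT replicate 3 alone only atp1 and cox1 of these mitochondrial genes passed, both higher, and only petB, lower, of these chloroplast genes.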
